A study of Mus musculus with 4 samples.

Results

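The red cell membrane and skeleton genes described here are 8 genes, Slc4a1, Epb42, Kel, Rhag, Sptb, Ank1, Epb41 and Aqp1, out of 28987 genes in the deposited table. They were taken by their mouse symbol because they encode red cell membrane proteins or parts of the spectrin and ankyrin skeleton. By their known use in tissues they were split into 4 erythroid-restricted genes (Slc4a1, Epb42, Kel and Rhag) and 4 genes that are also used outside red cells (Sptb, Ank1, Epb41 and Aqp1). RNA was sequenced from c-Kit-positive (CD117-selected) bone marrow cells, labelled hematopoietic stem and progenitor cells, of C57BL/6 mice. The 2 libraries called Hif1a-null came from mice that were MllPTD/WT, Runx1Flox/Flox, Hif-1alpha Flox/Flox and Mx1-Cre. The 2 libraries called Hif1a-intact came from mice that were MllPTD/WT, Runx1Flox/Flox and Mx1-Cre, with no floxed Hif1a. All 4 libraries therefore share a heterozygous partial tandem duplication of Mll and a floxed Runx1, and all 4 are titled Runx1-null. The set holds no wild-type library. Mx1-Cre is driven by an interferon-inducible promoter that is not limited to blood cells. The labels give no age, no sex, no day of Cre induction and no word on whether the libraries of a group are separate animals, so the p-values reflect how far these few samples scatter, and that scatter may be technical.

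The red cell membrane is held by a mesh of spectrin tetramers under the lipid bilayer. Beta spectrin binds ankyrin, ankyrin binds the anion exchanger band 3 with the help of protein 4.2, and at the corners of the mesh protein 4.1 joins spectrin to short actin filaments and to glycophorin C. Erythroid precursors build this structure as they mature, and defects in band 3, protein 4.2, ankyrin or spectrin cause hereditary spherocytosis or related anaemias. Many of these genes carry GATA and CACCC elements that the erythroid factors GATA1 and KLF1 are known to bind.

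Values are TPM, a relative abundance that is scaled by transcript length, so levels of different genes can be set side by side. They keep no read count, so depth is unknown and no counting error can be given. A log2 fold change is the Hif1a-null mean of log2(TPM + 1) less that of the Hif1a-intact libraries, a scale that makes changes of low genes look smaller. They were tested with limma over 11909 genes, with Benjamini-Hochberg adjusted p-values and a threshold of 0.05. With 2 libraries against 2, an exact two-sided permutation test of a single gene cannot go below p = 0.333 and was not used.

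Hif1a transcript was not lower in the Hif1a-null libraries. It read 98.8 and 113 TPM there, against 100 and 75.2 TPM in the Hif1a-intact libraries (limma, adjusted p = 0.479), and a whole-gene value does not check a deletion of floxed exons, so directions rest on the labels. Runx1 read 48.4 and 46.7 TPM in Hif1a-null against 73.6 and 76.6 TPM in Hif1a-intact libraries (limma, adjusted p = 0.0636), so a difference in Runx1 cannot be told apart from one in Hif1a. Both groups are titled Runx1-null, and this whole-gene value does not check a deletion of floxed Runx1 exons either. The progenitor marker Kit read 121 and 102 TPM against 128 and 126 TPM. The granulocyte markers were far more abundant and summed to 103449 and 100026 TPM in Hif1a-null against 60872 and 53853 TPM in Hif1a-intact libraries. Chil3 alone read 64447 and 62291 TPM against 30122 and 27349 TPM, so the sum does not show how the other markers moved. Of the 10 markers, 7 were higher without overlap, as were 22.7% of tested genes, 1 was lower without overlap and 2 overlapped. Among genes that every cell uses, Rps12, chosen after its values were seen, read 77 and 74.6 TPM in Hif1a-null libraries and 6.26e-07 and 132 TPM in Hif1a-intact libraries, so a value near 0 can be a failed estimate.

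The promoter sequences of some members that differed together, and of Epb41, which did not pass the test, are shown first, because erythroid factors are known to bind close to the starts of such genes. RefSeq promoter windows on GRCm38.p6 matched 6 of the 8 members. No promoter sequence of Slc4a1 or Ank1 was used here. In the 250 bases before each start, both strands were searched for 3 motifs: the GATA element (AGATAA or TGATAA), the CACCC element (CACCC) and the core of the HIF-binding element (ACGTG). No matches overlapped each other in the member windows. Epb42, whose exon-free run was 55 bases, is not shown. A single Epb41 window is shown, and another lay wholly in annotated exons. Below, each line is an exon-free run of 120 bases, 5′ to 3′ on the gene's strand, with complete GATA and CACCC matches in capitals.
Kel, chr6:41704340-41704459, minus strand: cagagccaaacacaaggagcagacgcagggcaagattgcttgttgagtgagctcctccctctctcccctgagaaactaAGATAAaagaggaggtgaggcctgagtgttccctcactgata
Rhag, chr17:40811006-40811125, plus strand: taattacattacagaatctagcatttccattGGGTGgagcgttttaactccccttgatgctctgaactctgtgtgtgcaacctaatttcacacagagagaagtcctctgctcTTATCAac
Sptb, chr12:76710548-76710667, minus strand: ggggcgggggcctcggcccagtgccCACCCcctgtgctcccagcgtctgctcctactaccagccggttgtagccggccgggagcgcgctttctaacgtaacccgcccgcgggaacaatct
Aqp1, chr6:55336179-55336298, plus strand: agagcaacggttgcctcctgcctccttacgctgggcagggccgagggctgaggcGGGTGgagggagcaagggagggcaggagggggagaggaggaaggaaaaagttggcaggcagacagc
Epb41, chr4:132072098-132072217, minus strand: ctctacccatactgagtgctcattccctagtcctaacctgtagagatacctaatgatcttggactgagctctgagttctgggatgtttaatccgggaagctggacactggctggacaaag

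The erythroid-restricted Kel and Rhag each held a GATA element close to the start. In Kel it lay at positions -56 to -51 as AGATAA, with a further TGATAA at -19 to -14 and a CACCC at -5 to -1. The TGATAA reaches an annotated exon with its last base, and the CACCC lies inside it. In Rhag the TGATAA lay on the reverse strand at -31 to -26, and a reverse-strand CACCC lay at -112 to -108. Epb42 held a reverse-strand AGATAA further up, at -226 to -221. Sptb held a CACCC at -95 to -91 and Aqp1 a reverse-strand CACCC at -66 to -62, with 2 more further up. None of the 3 Epb41 windows held a GATA element, a CACCC or an ACGTG, and no member window held an ACGTG. In all, 3 of 8 member windows (37.5%) held a GATA element, against 16.6% of all 32851 promoter windows of the same length, and 4 of 8 (50%) held a CACCC, against 52% of all windows. ACGTG was in 16.6% of all windows. Of the further membrane and skeleton genes described below, those called higher held a GATA element in 2 of 4 windows and a CACCC in 4 of 4, and those not called held a GATA element in 5 of 19 windows (26.3%), a CACCC in 15 of 19 (78.9%) and an ACGTG in 6 of 19. Genes that did not pass thus held these motifs too. These are matches of letters, not sites shown to be bound.

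Transcripts of 7 of the 8 members read 14.0 TPM or more in the libraries labelled Hif1a-null and 3.81 TPM or less in Hif1a-intact libraries. The 7 genes, without Epb41, summed to 344 and 360 TPM in the Hif1a-null libraries, against 11.1 and 5.81 TPM in the Hif1a-intact libraries. Epb41 made up 13.4% and 15% of the summed TPM of the 8 genes in Hif1a-null libraries, against 80.6% and 89.0% in Hif1a-intact libraries. In RNA of a mixed population, more cells of a type and more RNA per cell cannot be told apart. The limma test called these 7 members higher and 0 lower (also 0 lower at an unadjusted p under 0.05 and with limma-trend), against 5.25% of all tested genes called higher and 2.02% called lower. All 8 members had both Hif1a-null libraries above both Hif1a-intact libraries, as did 22.7% of tested genes. Neither Sptb nor Ank1 reached 1 TPM in any Hif1a-intact library, and both entered the test through the Hif1a-null libraries alone, which fixed their direction. Of the 536 tested genes in that position 61.8% were called higher. Slc4a1, Epb42, Kel and Rhag each reached 1 TPM in only 1 Hif1a-intact library, so they too needed a Hif1a-null library to be tested. Among the members called, only Aqp1 would have been tested on its Hif1a-intact values alone. With no filter on low values, all 8 members were tested among 20081 genes and 6 were called higher, all but Kel and Epb41, against 2.14% of genes.

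**Figure D1:**
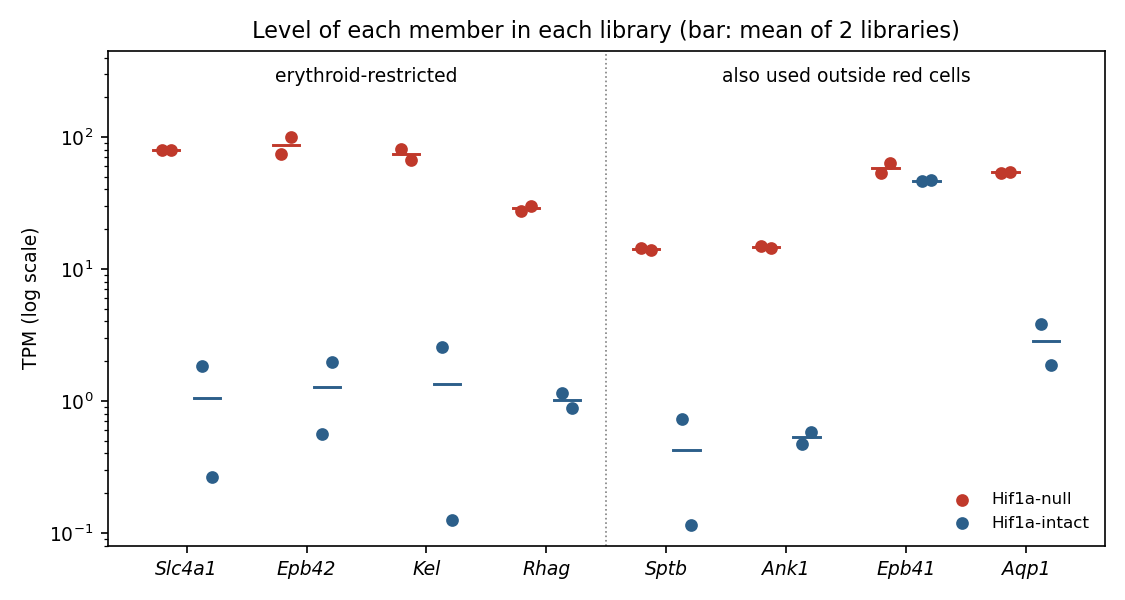
TPM (log axis) of the 8 members in each of 4 libraries, with points for libraries and short bars for the mean of 2 libraries, Hif1a-null left of Hif1a-intact. In 7 members the Hif1a-null libraries lie between 14.0 and 100 TPM and the Hif1a-intact libraries between 0.114 and 3.81 TPM, while Epb41 lies between 46.3 and 63.3 TPM in all 4 libraries.

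Slc4a1 (ENSMUSG00000006574, GRCm38 chromosome 11, 102348824 to 102366203, minus strand) encodes band 3, the chloride and bicarbonate exchanger that is the main integral protein of the red cell membrane. It read 79.0 and 79.5 TPM in Hif1a-null libraries, against 1.83 and 0.264 TPM in Hif1a-intact libraries. The Hif1a-null libraries were alike, and the Hif1a-intact libraries differed from each other 6.95-fold. The log2 fold change was 5.41 (standard error 0.42, 95% interval 4.26 to 6.55, limma adjusted p = 0.00964), which placed Slc4a1 at rank 9 of the tested genes.

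Epb42 (ENSMUSG00000023216, chromosome 2, 121017891 to 121037072, minus strand) encodes protein 4.2, a relative of the transglutaminases that has no enzyme activity and strengthens the link between band 3 and ankyrin. It read 74.4 and 100 TPM in Hif1a-null libraries, against 0.56 and 1.97 TPM in Hif1a-intact libraries. Here Hif1a-intact replicate 2 was the higher of its pair, the opposite of Slc4a1. The log2 fold change was 5.34 (standard error 0.37, limma adjusted p = 0.00818).

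Kel (ENSMUSG00000029866, chromosome 6, 41686330 to 41704339, minus strand) encodes the Kell blood group protein, a zinc endopeptidase that can process endothelin-3. It read 80.4 and 67.2 TPM in Hif1a-null libraries, against 2.57 and 0.125 TPM in Hif1a-intact libraries. The Hif1a-intact pair differed 20.5-fold, the widest gap of any member. Kel had a log2 fold change of 5.22 (standard error 0.59, limma adjusted p = 0.0209), and the call was lost with no filter on low values (adjusted p = 0.0693) and with a pseudocount of 0.1 (adjusted p = 0.0866). With that pseudocount 6 members were called higher, against 4.48% of genes.

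Rhag (ENSMUSG00000023926, chromosome 17, 40811126 to 40840754, plus strand) encodes the Rh-associated glycoprotein, which carries Rh proteins to the surface and can pass ammonium. It read 27.7 and 30.0 TPM in Hif1a-null libraries, against 1.14 and 0.888 TPM in Hif1a-intact libraries. Both pairs were close, and the log2 fold change was 3.89 (standard error 0.14, 95% interval 3.5 to 4.28, limma adjusted p = 0.00349).

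Of the members also used outside red cells, the pair that forms the anchor of the skeleton differed alike. Sptb (ENSMUSG00000021061, chromosome 12, 76580488 to 76710547, minus strand) encodes erythroid beta spectrin, found in muscle and brain as well. It read 14.3 and 14.0 TPM in Hif1a-null libraries, against 0.731 and 0.114 TPM in Hif1a-intact libraries (log2 fold change 3.45, standard error 0.25, limma adjusted p = 0.00851). Ank1 (ENSMUSG00000031543, chromosome 8, 22974844 to 23150497, plus strand) encodes the ankyrin that ties beta spectrin to band 3, with a short muscle form from the same gene. It read 14.9 and 14.5 TPM in Hif1a-null libraries, against 0.474 and 0.586 TPM in Hif1a-intact libraries (log2 fold change 3.36, standard error 0.13, limma adjusted p = 0.00349). The ratio of Ank1 to Sptb was 1.04 in both Hif1a-null libraries and 0.649 and 5.12 in the Hif1a-intact libraries, where both genes were under 1 TPM. Ank1 shares transcript sequence with the annotated gene Gm15816 and held 99% of their joint TPM. The skeletal muscle markers Myh1 and Myh4 were listed at 0 in all 4 libraries and Acta1 did not exceed 0.161 TPM, while Mylpf read 24.0 and 54.0 TPM in Hif1a-null against 28.2 and 3.64 TPM in Hif1a-intact libraries, so that the groups overlapped. The part of muscle transcripts in the Sptb and Ank1 values was not tested.

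Aqp1 (ENSMUSG00000004655, chromosome 6, 55336432 to 55348555, plus strand) encodes the aquaporin-1 water channel of red cells, kidney and endothelium. It read 53.5 and 54.3 TPM in Hif1a-null libraries, against 3.81 and 1.86 TPM in Hif1a-intact libraries. The groups were far apart, with the highest Hif1a-intact level of the 7 genes that were called. The log2 fold change was 3.89 (standard error 0.28, limma adjusted p = 0.00863). Of 9 endothelial and stromal markers, 6 were higher without overlap, as were 22.7% of all tested genes, 2 were lower without overlap and 1 overlapped. None was at 0 in any library, and their summed level was 53.3 and 51.6 TPM in Hif1a-null against 55.2 and 45.7 TPM in Hif1a-intact libraries. Most of the Hif1a-intact sum was Pecam1, so the sum does not show how the lower markers moved. The endothelial gene Cdh5 read 1.66 and 1.61 TPM against 0.599 and 0.627 TPM (limma, adjusted p = 0.0509), and Pecam1 fell to 15.9 and 16.0 TPM against 32.5 and 32.2 TPM (limma, adjusted p = 0.0254), a gene whose count is uncertain because it shares sequence with the far more abundant Gm11032. Their part in the Aqp1 values was not tested.

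Epb41 (ENSMUSG00000028906, chromosome 4, 131923413 to 132075321, minus strand) encodes protein 4.1, which most cells make in tissue-specific splice forms. It read 53.0 and 63.3 TPM in Hif1a-null libraries, against 46.3 and 47.1 TPM in Hif1a-intact libraries. The groups did not overlap but lay close. Its log2 fold change was 0.31, with a 95% interval from -0.10 to 0.71 (limma adjusted p = 0.323), and the lowest interval bound of any other member was 2.77. A gene-level TPM sums all splice forms, so a shift between them would not be seen.

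**Figure D2:**
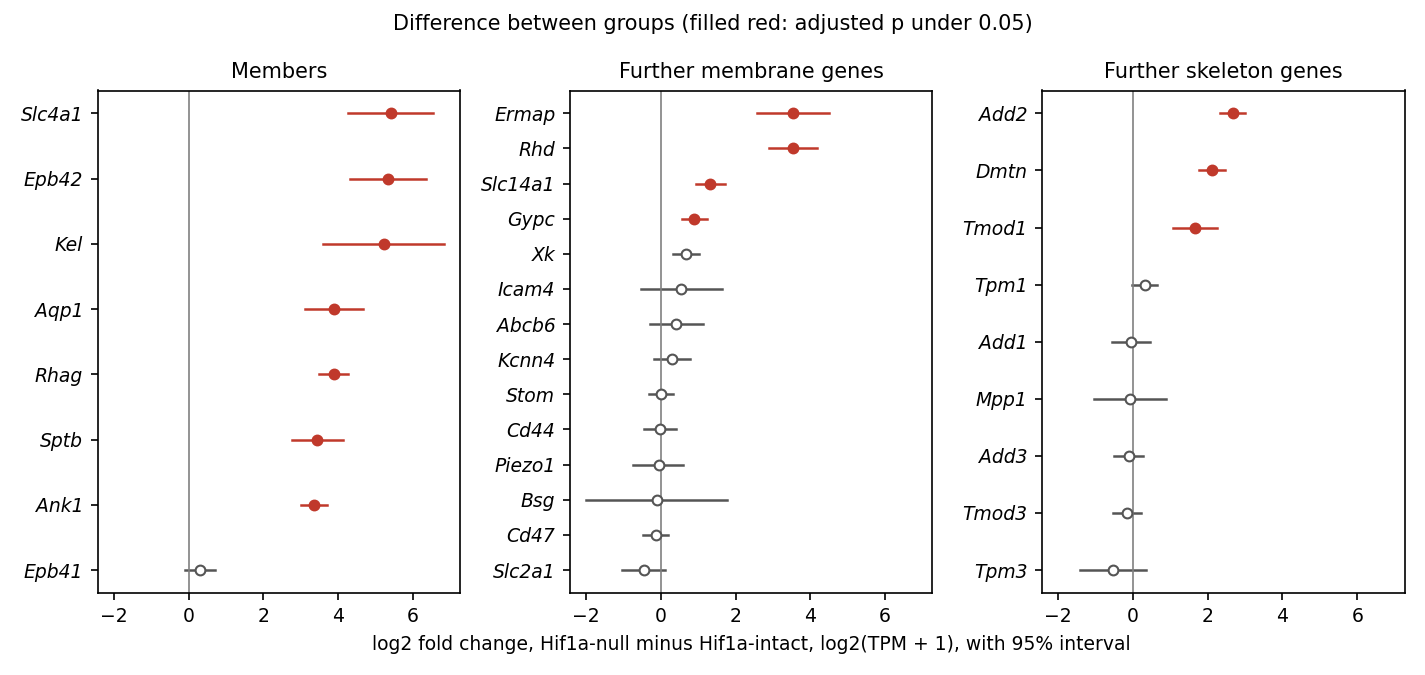
Log2 fold change on log2(TPM + 1), Hif1a-null minus Hif1a-intact, for the 8 members and for further membrane and skeleton genes, with lines for 95% intervals and filled red points for limma adjusted p under 0.05. Members other than Epb41 lie at 3.36 or above, and the further genes range from 3.53 for Rhd and Ermap to -0.54 for Tpm3.

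The split between erythroid-restricted and other members did not separate the genes that differed from the one that did not. The median log2 fold change was 5.28 over the 4 erythroid-restricted members and 3.40 over the 4 others, against -0.06 over all tested genes. These medians describe the lists, and the difference between them was not tested. Rhag and Aqp1 had the same fold change of 3.89 although only Rhag is erythroid-restricted. Within the Hif1a-null libraries the mean levels, with SD over 2 libraries, ran from Epb42 (87.2 ± 18.1 TPM) through Slc4a1 (79.2 ± 0.355), Kel (73.8 ± 9.31), Epb41 (58.2 ± 7.25), Aqp1 (53.9 ± 0.606) and Rhag (28.8 ± 1.64) to Ank1 (14.7 ± 0.255) and Sptb (14.1 ± 0.184). In this order the libraries of Epb42, Slc4a1 and Kel overlapped or lay within their spread, as did those of Epb41 and Aqp1, Rhag stood apart from its neighbours, and Ank1 and Sptb lay close without overlap. In the Hif1a-intact libraries Epb41 came first (46.7 ± 0.598 TPM), then Aqp1 (2.84 ± 1.37), whose libraries overlapped those of Kel and Epb42. The other 6 lay between 0.423 and 1.35 TPM on average. The libraries of Kel, Epb42, Slc4a1 and Rhag overlapped. Those of Sptb and Ank1 overlapped each other and those of Kel, Epb42 and Slc4a1, and lay below those of Rhag.

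Of the further red cell membrane proteins, 4 of 14 tested genes rose, 10 did not pass and 0 fell (0 at an unadjusted p under 0.05 and with limma-trend too). Over all tested genes 5.25% were called higher and 2.02% lower, and 1413 were lower at an unadjusted p under 0.05 (limma). Bcam, also on the membrane list, was too low to test. Rhd, the Rh antigen that pairs with Rhag, read 14.7 and 17.5 TPM in Hif1a-null libraries, against 0.772 and 0.223 TPM in Hif1a-intact libraries (limma adjusted p = 0.00792), and it too could only rise under the filter. Ermap, an erythroid membrane protein of the immunoglobulin superfamily, read 30.1 and 30.1 TPM against 2.75 and 0.925 TPM (limma adjusted p = 0.0156), a call lost with no filter (adjusted p = 0.0574).

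Slc14a1, the urea transporter of the Kidd blood group, rose to 15.1 and 14.3 TPM in Hif1a-null libraries, against 5.76 and 4.78 TPM in Hif1a-intact libraries (log2 fold change 1.32, limma adjusted p = 0.0196). Gypc, which encodes glycophorin C, the membrane anchor of protein 4.1, read 38.4 and 41.2 TPM against 20.6 and 21.1 TPM (log2 fold change 0.90, limma adjusted p = 0.0331). Xk, the partner of Kell in the membrane, read 14.1 and 14.8 TPM against 8.49 and 8.86 TPM and did not pass (limma adjusted p = 0.0588). Kel itself had a log2 fold change of 5.22 and Xk one of 0.68, and the difference between these values was not tested. The other membrane genes that did not pass were Cd47 (305 and 295 TPM in Hif1a-null against 337 and 325 TPM in Hif1a-intact libraries), Cd44, Stom, Piezo1, Bsg, Icam4, Kcnn4, Abcb6 and the glucose transporter gene Slc2a1.

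Of the further skeleton proteins, 3 of 9 tested genes rose and 0 fell, against 5.25% and 2.02% of all tested genes. Again 0 fell at an unadjusted p under 0.05 and with limma-trend. All 3 stayed below 1 TPM in each Hif1a-intact library, so the filter allowed them only to rise, and with no filter 2 of them passed. Add2, a beta adducin that caps actin at the spectrin junction, read 7.32 and 6.84 TPM against 0.276 and 0.258 TPM (limma adjusted p = 0.00494). Dmtn, the actin bundler dematin, read 4.30 and 3.98 TPM against 0.222 and 0.146 TPM (limma adjusted p = 0.00679). Tmod1, the tropomodulin that caps the slow-growing actin end, read 3.07 and 2.55 TPM against 0.0158 and 0.426 TPM (limma adjusted p = 0.0284, and 0.0714 with no filter).

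The 6 skeleton genes that did not pass were Add1, Add3, Tmod3, Tpm1, Tpm3 and Mpp1. Add1 read 49.0 and 42.6 TPM in Hif1a-null against 53.9 and 41.5 TPM in Hif1a-intact libraries. Tpm3, the most abundant, read 875 and 780 TPM against 892 and 1612 TPM. Over both lists together, 7 further genes rose, where 5.25% of all tested genes were called higher. The medians of the log2 fold change with no filter were 0.42 for the membrane list and -0.05 for the skeleton list, against 0.00 over all 20081 genes.

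Where a member has relatives with the same basic fold, the share of the family's TPM carried by the red cell gene was compared by library. Slc4a1 carried 69.7% and 77.5% of the TPM of the anion exchanger family (SLC4) in Hif1a-null libraries, against 4.85% and 0.678% in Hif1a-intact libraries. In the Hif1a-intact libraries the ubiquitous Slc4a2 was the main member, with 20.6 and 24.9 TPM, and its level did not pass the test (26.5 and 14.6 TPM in Hif1a-null libraries, limma adjusted p = 0.784). Slc4a8, a sodium-driven bicarbonate exchanger, was the only SLC4 gene called lower, with 1.53 and 1.72 TPM in Hif1a-null against 6.71 and 5.58 TPM in Hif1a-intact libraries (limma adjusted p = 0.0169).

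Kel carried 73.3% and 86.1% of the TPM of its peptidase family in Hif1a-null libraries, against 13% and 1.09% in Hif1a-intact libraries, where Ece2 was at 10.4 and 9.27 TPM. Aqp1 carried 79.5% and 79.7% of aquaporin TPM against 37.2% and 26.5%. Rhag carried 63.9% and 62.3% of the TPM of the Rh family against 52.6% and 42.2%, with Rhd as nearly all of the rest in Hif1a-null libraries. Aqp9, an aquaglyceroporin of leukocytes, also rose, with 10.7 and 11.3 TPM in Hif1a-null against 2.01 and 2.31 TPM in Hif1a-intact libraries (limma adjusted p = 0.00806). Epb42 carried 20.8% and 25.2% of the TPM of the transglutaminase family against 0.147% and 0.547%. In that family F13a1 was the most abundant gene at 264 and 279 TPM against 375 and 354 TPM, and Tgm2 rose to 18.6 and 17.3 TPM in Hif1a-null libraries, against 5.26 and 3.84 TPM in Hif1a-intact libraries (limma adjusted p = 0.0158).

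In the beta spectrins and adducins the red cell gene stayed in the minority of its family. Sptb carried 25.3% and 27.2% of beta spectrin TPM in Hif1a-null libraries, against 1.66% and 0.218% in Hif1a-intact libraries, and the general beta spectrin gene Sptbn1 read 41.5 and 37.3 TPM against 42.8 and 52.2 TPM (limma adjusted p = 0.438). Add2 carried 8.68% and 9.30% of adducin TPM against 0.338% and 0.366%. Ank1 was the only ankyrin gene listed above 0 in these libraries, since Ank2 and Ank3 were listed at 0 in all 4, which may be failed estimates. Its share of 100% in every library therefore does not describe the groups. Epb41 carried 67.7% and 68.0% of the TPM of the protein 4.1 family against 55.1% and 57.8%, with Epb41l2 next (17.8 and 19.6 TPM against 18.7 and 22.4 TPM).

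**Figure D3:**
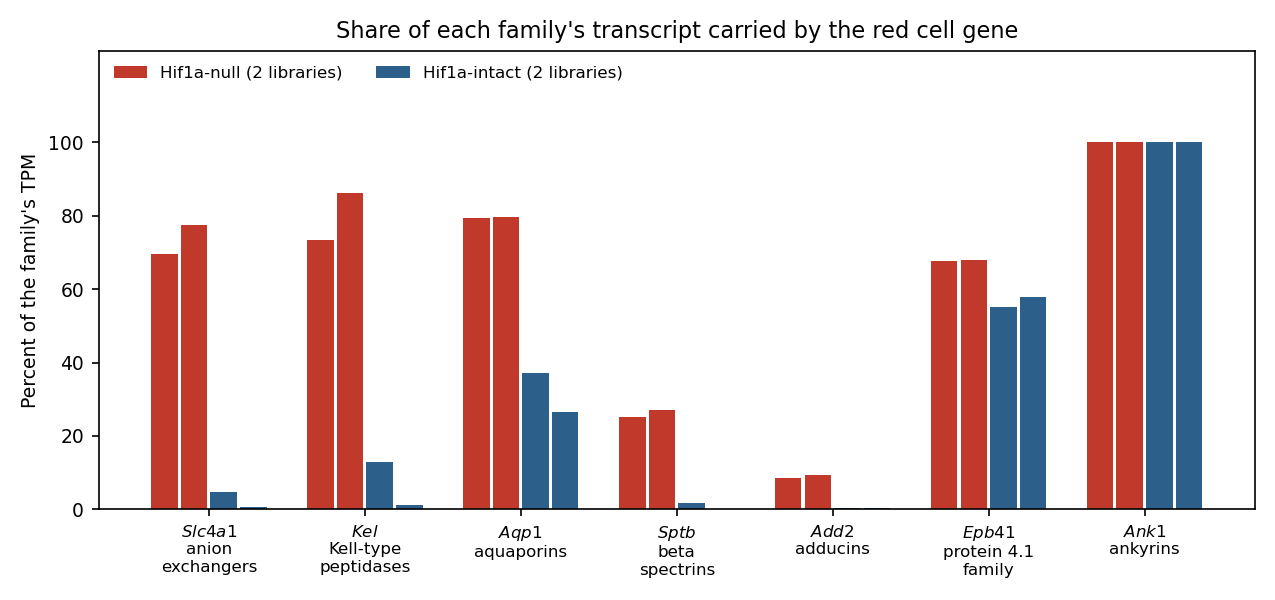
Percent of the TPM of each gene family carried by the red cell gene, per library, with the Hif1a-null libraries (red) left of the Hif1a-intact libraries (blue). The red cell gene carries 69.7% or more of the anion exchanger, Kell-type peptidase and aquaporin TPM in Hif1a-null libraries and 27.2% or less of beta spectrin and adducin TPM.

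The erythroid transcription factors were read beside the members. Klf1 rose to 20.4 and 20.1 TPM in Hif1a-null libraries, against 0.938 and 0.858 TPM in Hif1a-intact libraries (limma adjusted p = 0.00349). Gata1 read 14.7 and 18.6 TPM against 1.73 and 0.689 TPM (limma adjusted p = 0.0147), and Tal1 12.5 and 12.8 TPM against 2 and 1.36 TPM (limma adjusted p = 0.00851). Zfpm1, the GATA1 cofactor FOG1, read 2.90 and 3.52 TPM against 1.30 and 1.26 TPM (limma adjusted p = 0.0435). Nfe2, Lmo2, Ldb1, Bcl11a and Klf3 did not pass. Klf1 stayed below 1 TPM in each Hif1a-intact library, so the filter fixed its direction. With no filter 2 of these 9 factors passed, Klf1 and Tal1, against 2.14% of genes called higher. The calls of Gata1 (limma adjusted p = 0.0511) and Zfpm1 (limma adjusted p = 0.0631) were lost there.

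Set against Klf1 in the same library, the members fell into different patterns. Rhag stood at 1.35 and 1.49 times Klf1 in Hif1a-null libraries and at 1.22 and 1.04 times in Hif1a-intact libraries. Ank1 stood at 0.728 and 0.723 times against 0.505 and 0.683 times. These pairs were close, although neither overlapped. Slc4a1 stood at 3.87 and 3.96 times Klf1 in Hif1a-null libraries, against 1.95 and 0.307 times in Hif1a-intact libraries, and Epb42 at 3.64 and 4.97 times against 0.597 and 2.29 times, with no overlap in either. Kel stood at 3.93 and 3.35 times against 2.73 and 0.146 times, also without overlap. Sptb (0.698 and 0.697 times against 0.779 and 0.133 times) and Aqp1 (2.62 and 2.70 times against 4.06 and 2.17 times) overlapped. Epb41 stood at 2.60 and 3.15 times against 49.3 and 54.9 times. Set against the beta globin transcripts Hbb-bs and Hbb-bt, Slc4a1 read 14.8 and 13.8 TPM per 1000 TPM of globin in Hif1a-null libraries, against 18.4 and 3.64 in Hif1a-intact libraries, with overlap. Rhag read 5.18 and 5.21 against 11.5 and 12.3 on the same scale, and thus stood lower beside globin in Hif1a-null libraries while its own level was higher. In the Hif1a-intact libraries the ratios to Klf1 divide by values below 1 TPM.

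**Figure D4:**
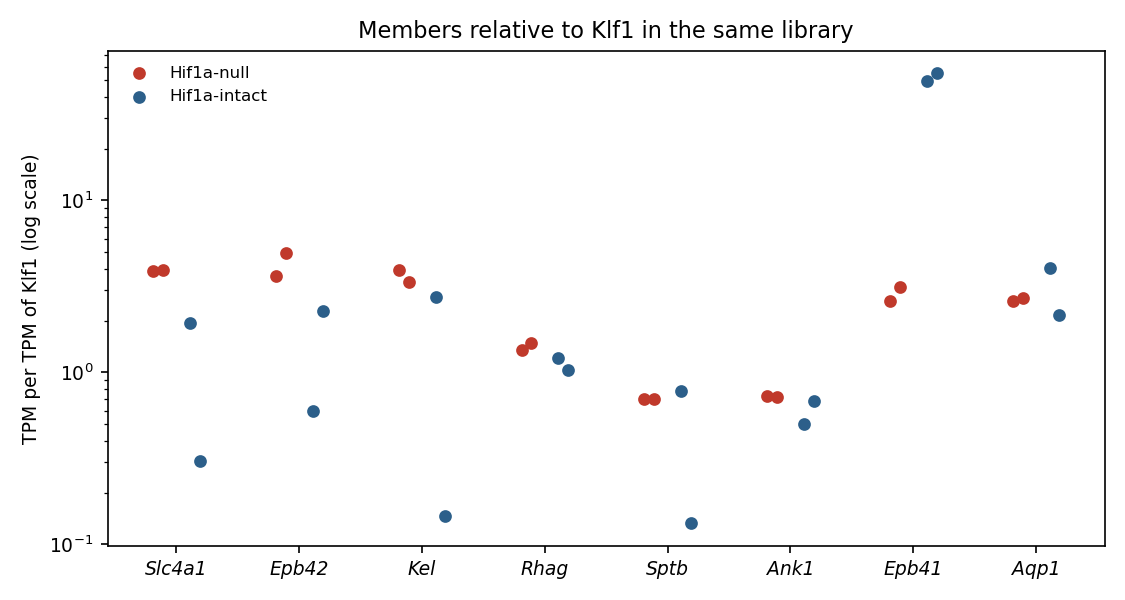
TPM of each member per TPM of Klf1 in the same library (log axis), Hif1a-null left of Hif1a-intact. The Hif1a-null points of Slc4a1, Epb42, Kel, Rhag and Ank1 lie above the Hif1a-intact points, those of Sptb and Aqp1 lie between them, and those of Epb41 lie below.

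Markers of other cells moved with the groups too. Of 14 erythroid markers, 13 rose, 1 (Tfrc) did not pass, and all 14 were higher without overlap, with a summed level of 7462 and 7959 TPM in Hif1a-null libraries against 231 and 163 TPM in Hif1a-intact libraries. None was at 0 in any library. Of 10 megakaryocyte markers 6 rose and none fell, and the list summed to 172 and 191 TPM against 39.5 and 39.6 TPM. Of 5 B cell markers 3 rose (207 and 204 TPM against 20.4 and 16.6 TPM in sum), and of 6 T and NK cell markers 5 rose (53.0 and 56.4 TPM against 6.01 and 5.26 TPM), with Gzma at 0 in both libraries of the Hif1a-intact group and Cd3e and Cd3g at 0 in Hif1a-intact replicate 1. Most of the B cell sum in Hif1a-null libraries was Dntt, at 189 and 188 TPM against 9.41 and 10.2 TPM. Cd79b overlapped, at 9.44 and 7.91 TPM against 9.97 and 6.12 TPM. Of 10 granulocyte markers 6 rose, and of 5 stem and progenitor markers 1, Sox4, fell. In the stem and progenitor list 4 markers were lower without overlap and 1 overlapped, counts for which no share over all tested genes is given here. That list summed to 548 and 557 TPM in Hif1a-null against 710 and 765 TPM in Hif1a-intact libraries. Among the genes that rose, 5 erythroid, 1 megakaryocyte, 2 B cell and 4 T and NK cell markers were below 1 TPM in each Hif1a-intact library, so the filter fixed their direction, as it did for the 536 genes of which 61.8% were called. Over all tested genes 5.25% were called higher. With no filter, 11 erythroid, 4 megakaryocyte, 2 B cell, 4 T and NK cell and 5 granulocyte markers passed, against 2.14% of genes called higher. The part of these shifts in the member values was not tested.

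The tested genes outside the lists whose profile lay nearest to Slc4a1, by the Euclidean distance of log2(TPM + 1) centred over the 4 libraries, were Chil1 (distance 0.68), Atp1b2 (1.04), Oxtr (1.09), Zfp972 (1.24), St3gal6 (1.32) and Mzb1 (1.36). Among members the nearest to Slc4a1 were Kel (0.44) and Epb42 (1.51). The genes nearest to Aqp1 were Slc38a5 (0.33), Tom1l1 (0.35), Klra7 (0.40), St3gal6 (0.42), Mid1 (0.42) and Mzb1 (0.46). Slc38a5 read 33.4 and 33.4 TPM in Hif1a-null libraries, against 1.48 and 1.04 TPM in Hif1a-intact libraries. These distances run over 4 libraries in 2 groups, and Klra7 belongs to a family of similar genes among which reads may be shared.

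The calls rested on having both Hif1a-null libraries. Without Hif1a-null replicate 1, Rhag was the 1 member of the 6 still tested that passed, where 0.0977% of genes were called higher. Without Hif1a-null replicate 2, 0 of the 6 passed and 0% of genes were called by limma, although 5 of the 6 members were higher at an unadjusted p under 0.05, as were 480 genes. In these fits the spread between replicates comes from the Hif1a-intact pair alone, and the lone library is assumed to vary like that pair. The log2 fold change of Slc4a1 was 5.41 and 5.40 in these 2 fits.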

How the data were processed

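Bone marrow cells were selected on anti-CD117 beads, per the labels' protocols, and kallisto and the mm10 build are named in the submitters' processing notes. Which version, transcripts and strand option were used is not given in the sources used here. As deposited by the authors, each Ensembl gene has 1 TPM value in every library, a unit inferred from the values, whose totals lie between 955562 and 963135. A rise in abundant transcripts lowers the TPM of all others, and reads of similar transcripts are shared by estimate.

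Symbols and coordinates came from GENCODE vM21 (GRCm38) for 27458 of 28987 genes, and 8906 genes were at 0 in all libraries. Groups followed the genotype labels. Log2(TPM + 1) values were fitted with limma 3.58.1 (R 4.3.3, two-sided) once a gene reached 1 TPM in 2 or more libraries. The fit was tested on simulated data. A blastn 2.17.0 search looked for near-identical copies, and promoter windows came from RefSeq (GRCm38.p6). Figures used matplotlib 3.10.9 in Python 3.11.15. The alternatives were limma-trend, robust variance, rescalings, other pseudocounts and filters, summing with copies, and each library left out.

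The members and gene lists were chosen with earlier results of these data known. Named genes were the members, Hif1a, Runx1 and Kmt2a, genes of the function lists, the most abundant or called paralogues, up to 4 markers a list, and the 6 genes nearest in profile to Slc4a1 and to Aqp1. Rps12, Cdh5, Tfrc, Gzma, Cd3e, Slc4a8 beside Slc4a2, and Myh1, Myh4 and Acta1 were named after their values were seen where that rule does not cover them. Rhbg was not analysed here, and a few other listed genes are not reported here and left out of the list counts. Kmt2a read 9.77 and 9.03 TPM in Hif1a-null against 9.41 and 9.96 TPM in Hif1a-intact libraries.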

Additional observations from a re-analysis of the deposited data

How the results depend on the processing

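No member and neither member group's median changed direction under the alternatives that gave it a value (Sptb and Ank1 had none without a Hif1a-null library), and the directions of the other lists were not recomputed. There were 7 members called higher under limma-trend, robust variance, quantile or median-ratio rescaling, protein-coding genes only, abundant genes left out, a pseudocount of 0.5, a mean of at least 1 TPM, and without either Hif1a-intact library. With a pseudocount of 0.1 there were 6, and with no filter 6, Kel being lost in both. Epb41 passed under none of the settings run. Where a Hif1a-intact library is left out, the spread between replicates comes from the Hif1a-null pair alone. The scatter of the Hif1a-intact pair, 20.5-fold for Kel, then does not enter the test. Leaving out each library in turn gave 0 to 7 members called higher, 0 to 6 further membrane and skeleton genes, 0 to 731 genes called higher and 0 to 288 called lower, with the low ends from leaving out a Hif1a-null library. With no filter, 138 genes were called lower, against 241. The cause was not tested. The median log2 fold change of the erythroid-restricted members was 6.39 and 5.74 with pseudocounts of 0.1 and 0.5, and 4.6 to 5.43 with each library left out. That of the members also used outside red cells was 4.42 and 3.98 with those pseudocounts, 3.64 with protein-coding genes only, 3.72 with abundant genes left out, and 2.03 to 3.54 with each library left out, since Sptb and Ank1 are no longer tested without a Hif1a-null library. No paired analysis was possible because the labels carry no replicate numbers shared between the groups. TPM keeps no read counts, so how far depth limits the low Hif1a-intact values is unknown.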
